A study of Homo sapiens with 2 samples.

Results

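A set of 9 genes of apolipoproteins and yolk sac endoderm was followed in human cells on the way from pluripotency to blood: APOA1, APOA2, APOB, APOC1, APOE, TTR, RBP4, AFP and HNF4A. They were 9 of the 18518 genes listed in either of 2 deposited tables, and were found there by NCBI gene number. The group was chosen by gene name and partly because APOA1 had been seen to be higher in the second library, so the contrast between the libraries is a description of the 9 genes and not a test of them. The libraries were RNA from wild type cells of H1, a human embryonic stem cell line in long use, and from H1 cells whose genotype label was MEIS1-/-. Both were collected at day 3 of an induction in which activin A at 40 ng/ml and BMP4 at 50 ng/ml for 2 days were followed by VEGF at 40 ng/ml and bFGF at 50 ng/ml for 2 days, in Custom mTeSR1 medium. These steps add up to more days than the label of day 3, which the labels did not resolve. There was 1 library per genotype, and the labels named no clone, no separate culture and no deleted part of MEIS1. The transcript of MEIS1, a homeodomain transcription factor gene, held 89 counts in the wild type library against 68 in the other, a ratio of 0.759 (0.543 to 1.05). Its level thus did not check the label, and the second library is called the library labelled deleted.

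Apolipoproteins are the protein part of lipoproteins, the particles that carry cholesterol and triglyceride through blood. Before the liver forms, the endoderm layer of the yolk sac makes them for the embryo, together with other secreted carriers such as alpha-fetoprotein, transthyretin and retinol-binding protein. HNF4A, a nuclear receptor that binds DNA as a homodimer, is a known activator of many of these genes in visceral endoderm and liver. APOE and APOC1 are also made by many cells outside endoderm, macrophages among them.

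The wild type table listed 17562 genes with 5202877 counts and the other 17696 genes with 5296431. A ratio below is the count in the library labelled deleted over that in wild type, after scaling by library size. For single genes 1 was added to each scaled count. The 95% interval of a ratio is exact, has no such addition and covers counting error only. With 1 library per genotype there was no replicate check and no test. A gene is called higher or lower when that interval excludes a ratio of 1, and genes with at least 10 counts in either library were compared.

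The 9 genes did not move as a group. APOA1, APOA2 and APOB were 2.6 to 2.9 times as high in the library labelled deleted, APOC1 and APOE were lower there, AFP and HNF4A had intervals that included 1, and TTR and RBP4 were at or near the floor of detection. Of the 7 genes compared, 3 were higher, all by at least 2-fold, and 2 were lower, 0 of them by 2-fold. Among all 14381 genes compared, 15.4% were called higher and 14.7% lower, and 2.90% were called higher and 2.95% lower by at least 2-fold. The same shares belong beside the counts of calls for each list below. The median log2 ratio was 0.46 over the 7 genes and 0.0033 over all genes compared. The counts of the 9 genes added up to 1935 and 1870, a ratio of 0.956 (0.897 to 1.02), because APOE held most of them. Without APOE the sums were 432 and 667, a ratio of 1.53 (1.35 to 1.73). In bulk RNA, more cells of a type and more RNA per cell cannot be told apart.

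**Figure D1:**
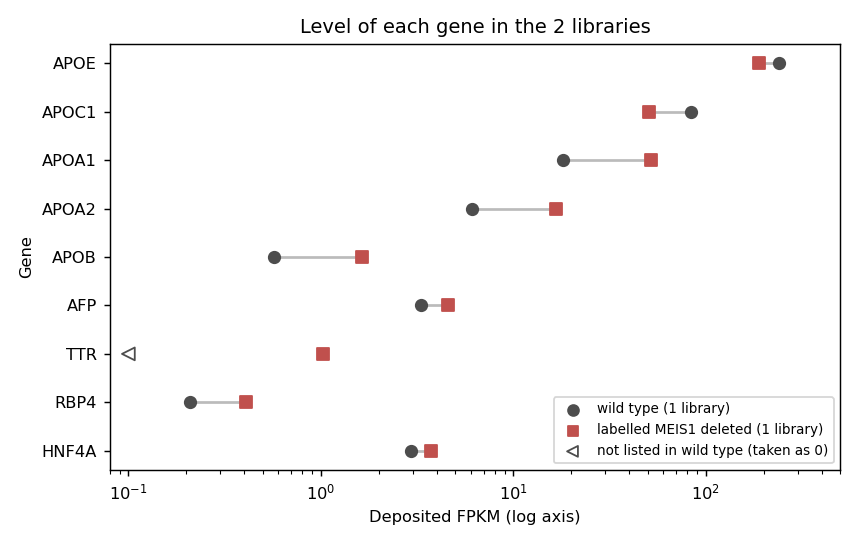
Deposited FPKM of each of the 9 genes (log axis) in the wild type library (circles) and the library labelled MEIS1 deleted (squares), 1 library each. APOE is highest in both libraries, APOA1 moves from 18.1 to 51.9 FPKM, and TTR is not listed in wild type.

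Levels of different genes can be set side by side on the FPKM scale, which divides by transcript length. APOE was the most abundant of the 9, at 240.2 and 188.8 FPKM in that order of libraries, above 98.9% and 98.5% of the genes listed. APOC1 followed in wild type with 83.3 FPKM, then APOA1 with 18.1 and APOA2 with 6.08. In the library labelled deleted APOA1, at 51.9 FPKM, stood level with APOC1, at 50.8. AFP was at 3.33 and 4.57 FPKM, HNF4A at 2.94 and 3.75, and APOB, whose transcript is 14121 bases long, at 0.57 and 1.63. RBP4 was at 0.21 and 0.41 FPKM and TTR at 0 and 1.03. Between neighbours in this order, the FPKM ratio of AFP to HNF4A had a counting interval that included 1 in both libraries, at 1.13 (0.732 to 1.72) and 1.22 (0.844 to 1.74). That of APOA2 to AFP did so in wild type, at 1.83 (0.907 to 3.48), and not in the library labelled deleted, at 3.64 (2.33 to 5.65). APOC1 stood 4.61 times above APOA1 in wild type (3.54 to 6.05), while in the library labelled deleted APOA1 to APOC1 was 1.02 (0.816 to 1.29). APOE alone made up 67.7% of the summed FPKM of the 9 genes in wild type and 59.1% in the other library, while the share of APOA1 went from 5.09% to 16.3%.

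APOA1 (gene 335, chromosome 11) encodes the main protein of high-density lipoprotein, which takes up cholesterol from cells. The wild type library held 82 APOA1 counts (65.2 to 102 by an exact Poisson interval) and the library labelled deleted 240 (211 to 272). The 2 counting intervals did not overlap, and the ratio was 2.87-fold higher (2.25 to 3.77). Overlap of such intervals, given here and below, reuses the counts behind each ratio and adds nothing to its call. No share of all genes compared without overlap was computed. APOA2 (gene 336, chromosome 1) encodes the second protein of the same particle. Its counts were 14 (7.65 to 23.5) and 39 (27.7 to 53.3), which again did not overlap, and the ratio was 2.64-fold (1.46 to 5.50). APOB (gene 338, chromosome 2) encodes the large protein around which chylomicrons and very-low-density lipoprotein are built. APOB counts were 42 (30.3 to 56.8) and 123 (102 to 147), without overlap, 2.85-fold higher (2.03 to 4.22). The 3 genes lie on 3 chromosomes and differ widely in level, and their log2 ratios were 1.52, 1.40 and 1.51. Of all genes compared, 98.5%, 98.0% and 98.5% had a smaller ratio, a description only, since the value of APOA1 was among the reasons for the choice. Together they held 138 and 402 counts, 2.88-fold more (2.37 to 3.52) with nothing added to the counts.

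APOE and APOC1 went the other way. APOE (gene 348, chromosome 19) encodes the ligand by which remnant particles bind their uptake receptors. Its counts were 1503 (1428 to 1581) and 1203 (1136 to 1273), so the intervals were apart but the fold was small, 1.26-fold lower (1.17 to 1.36). APOC1 (gene 341, chromosome 19), the neighbour of APOE, encodes a small apolipoprotein that hinders uptake of remnants and inhibits the lipid transfer protein CETP. It had 188 counts (162 to 217) and 117 (96.8 to 140), also apart, and was 1.62-fold lower (1.28 to 2.06). APOC1 was the only 1 of the 9 genes with expected counts that were not whole, 187.93 and 116.77, as estimated counts can be where reads match more than 1 sequence. Its pseudogene APOC1P1 held 2 and 5 counts, and with these added the log2 ratio of APOC1 was -0.65 in place of -0.69.

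**Figure D2:**
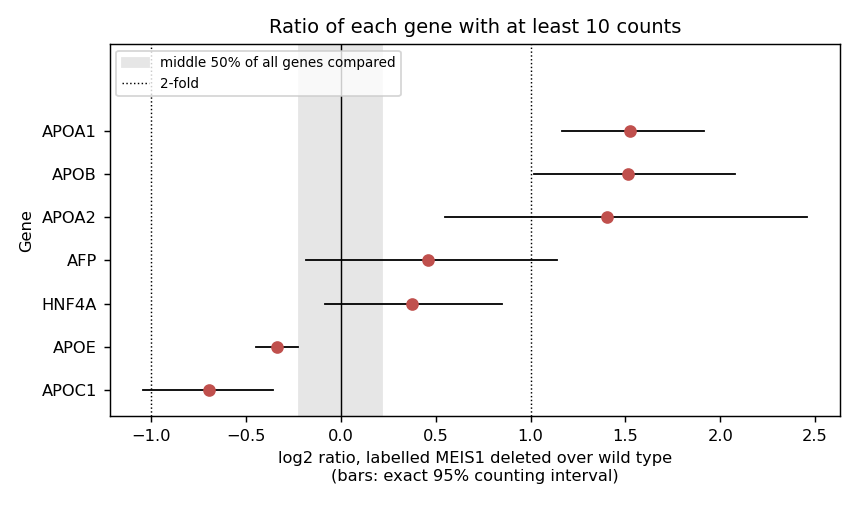
Log2 ratio of the library labelled MEIS1 deleted over wild type for the 7 genes with at least 10 counts, with exact 95% counting intervals. The grey band is the middle 50% of all 14381 genes compared. APOA1, APOB and APOA2 lie between 1.40 and 1.52, and APOE and APOC1 below 0.

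AFP (gene 174, chromosome 4) encodes alpha-fetoprotein, the albumin-like plasma protein of the fetus and a marker of yolk sac endoderm and fetal liver. Its counts of 35 (24.4 to 48.7) and 49 (36.3 to 64.8) overlapped, and the ratio of 1.37 (0.880 to 2.20) included 1. RBP4 (gene 5950, chromosome 10), the carrier of retinol in plasma, had 1 and 2 counts. TTR (gene 7276, chromosome 18), which carries thyroid hormone and binds the RBP4 protein, was not listed in wild type, where 0 counts allow up to 3.69 by the same exact interval, and had 5 counts in the library labelled deleted. Its interval of the ratio started at 0.907 and so included 1. HNF4A (gene 3172, chromosome 20) had 70 counts (54.6 to 88.4) and 92 (74.2 to 113), which overlapped, a ratio of 1.30 (0.943 to 1.80). HNF4A has more than 1 promoter, and the tables give 1 value per gene, with a mean transcript length of 4558 and 4608 bases, so the promoters could not be told apart. Among the carriers and HNF4A no call was made in either direction.

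The ratio of 2 genes within a library is not touched by the scaling between libraries. APOA1 had 1.95 counts for each count of APOB in either library, a change of 0.999-fold (0.632 to 1.57). The change was 1.05-fold (0.50 to 2.10) for APOA1 to APOA2 and 0.951-fold (0.451 to 2.09) for APOA2 to APOB. The upper ends of these intervals, up to 2.10, leave room for unequal change among the 3 genes. Against APOE, by contrast, APOA1 went from 0.0546 to 0.200 counts per count, a change of 3.66-fold (2.80 to 4.81). Against its fellow marker AFP the change of APOA1 was 2.09-fold (1.22 to 3.55), and against HNF4A 2.22-fold (1.46 to 3.38). Every pair with APOA1 is a description only, since the value of APOA1 was among the reasons for the choice. AFP to HNF4A changed 1.06-fold (0.604 to 1.89). APOC1 to APOE changed 0.778-fold (0.604 to 0.998), an interval that ended close to 1. Of the 21 pairs among the 7 genes compared, 16 had an interval that excluded 1, and no correction was made for their number. The pairs reuse the counts of the same 7 genes, so they are not results apart from the calls on single genes. No share over pairs of all genes was computed to set beside them.

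**Figure D3:**
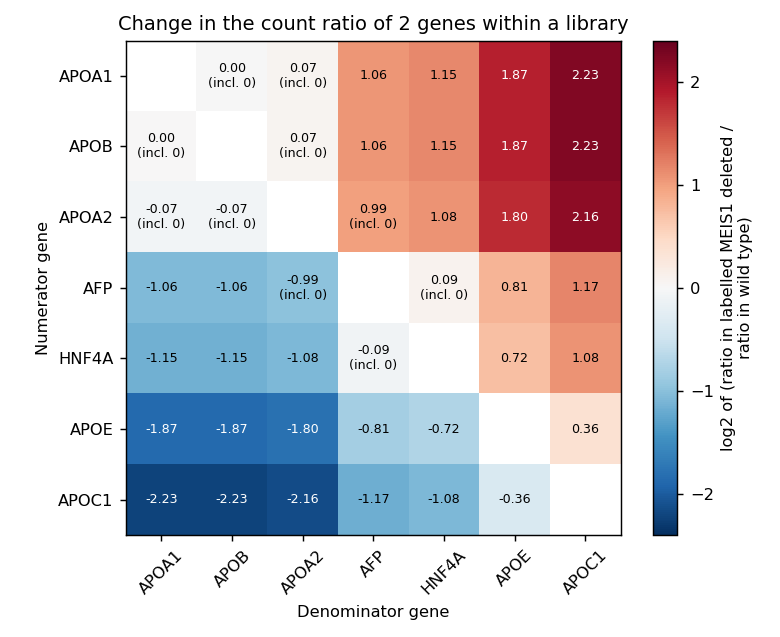
Log2 change, from wild type to the library labelled MEIS1 deleted, in the count ratio of the row gene to the column gene, computed within each library. Cells marked as including 0 have a 95% counting interval that does so, which holds for 5 of 21 pairs: the 3 among APOA1, APOB and APOA2, APOA2 with AFP, and AFP with HNF4A.

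Promoter windows in RefSeq (GRCh38.p14) were at hand for 6 of the 9 genes, in 11 windows. APOA1, APOB and TTR had no window and were not searched. The 250 bases before the annotated start are shown for 4 genes, to set the higher APOA2 beside the lower APOE and APOC1, and AFP as the carrier with the most counts. Each is written 5′ to 3′ on the strand of the gene, and capitals mark motif matches. APOA2 lies at chr1:161223629-161223878 (minus strand), APOE at chr19:44905546-44905795 (plus strand, the most upstream of 3 annotated starts), APOC1 at chr19:44914422-44914671 (plus strand) and AFP at chr4:73435971-73436220 (plus strand).
APOA2: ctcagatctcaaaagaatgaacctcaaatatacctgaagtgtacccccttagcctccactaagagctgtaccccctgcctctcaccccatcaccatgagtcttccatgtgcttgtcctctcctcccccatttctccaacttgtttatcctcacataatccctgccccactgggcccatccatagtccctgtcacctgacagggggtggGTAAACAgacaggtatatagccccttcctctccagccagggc
APOE: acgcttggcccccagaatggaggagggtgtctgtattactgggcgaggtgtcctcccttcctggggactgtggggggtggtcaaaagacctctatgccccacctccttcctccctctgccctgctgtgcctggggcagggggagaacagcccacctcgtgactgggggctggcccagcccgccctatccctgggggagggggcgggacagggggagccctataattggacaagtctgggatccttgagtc
APOC1: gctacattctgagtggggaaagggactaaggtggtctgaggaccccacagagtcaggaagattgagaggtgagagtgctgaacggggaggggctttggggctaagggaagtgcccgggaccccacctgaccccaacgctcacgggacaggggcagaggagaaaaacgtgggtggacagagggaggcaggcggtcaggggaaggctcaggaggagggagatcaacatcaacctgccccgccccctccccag
AFP: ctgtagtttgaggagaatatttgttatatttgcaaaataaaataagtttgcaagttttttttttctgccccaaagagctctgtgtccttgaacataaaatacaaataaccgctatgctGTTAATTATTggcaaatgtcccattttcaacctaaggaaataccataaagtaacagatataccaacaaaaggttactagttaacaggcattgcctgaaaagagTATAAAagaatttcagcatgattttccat
In the APOA2 window the forkhead-type letters TGTTTAC were found on the opposite strand, at -42 to -36 from the start, which 3.42% of all 35116 RefSeq windows hold on either strand. The AFP window held the HNF1-type letters GTTAAT, any base, then ATT, as GTTAATTATT at -132 to -123, found in 0.322% of windows, and TATAAA at -29 to -24, found in 7.33% on the strand of the gene. TATAAA was in 4 of the 11 windows, that of AFP and those of RBP4, 1 of which held it at -31 to -26. The APOE and APOC1 stretches shown held none of the motifs searched. The GATA-type letters AGATAA, in 10.3% of windows, occurred in 3 of the 11, for APOA2 and APOE after the start. The HNF4-type letters CAAAGTCCA and CAAAGNCCA, which include the former, were in 0 of the 11 windows. They were in 0.384% and 1.59% of all windows, and at shares this low 11 windows are too few to show an absence. All these motifs are matches of letters in a short window and say nothing of binding. The APOE and APOC1 stretches were rich in G and C, at 64.8% and 62.4%, against 52.8% for APOA2 and 31.6% for AFP.

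Taking 3 RefSeq genes on either side of each of the 9, 14 of 48 neighbours reached 10 counts, of which 1 was higher, 2 were lower and 11 had an interval that included 1, beside 15.4% higher and 14.7% lower over all genes. At 2-fold 0 of the 14 were called, where 2.90% and 2.95% of all genes were, and the neighbours are too few to set against that share. The lower ones were BCAM beside APOE, at 165 and 124 counts, and DSG2 beside TTR, at 1759 and 1620. In the apolipoprotein cluster around APOA1, APOC3 was listed in neither library and APOA4 had 0 and 1 counts. The next gene with counts, the kinase gene SIK3, had 241 and 247. Beside APOA2, the protease gene ADAMTS4 had 107 and 104 counts, and beside APOB the lipid droplet gene LDAH had 182 and 194. In the cluster of APOE and APOC1, the mitochondrial import gene TOMM40 had 439 and 477 counts, a ratio of 1.08 (0.943 to 1.23), and the adhesion gene NECTIN2 1765 and 1912, 1.07-fold higher, with an interval whose lower end was 1.0. APOC4 held 4 and 3 counts and APOC2 was listed in neither library. Next to AFP, the albumin gene ALB was listed in neither library, and the afamin gene AFM had 0 and 6 counts. APOA1 overlaps the antisense gene APOA1-AS, which was listed in neither table, and the labels did not say whether counting used strand.

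**Figure D4:**
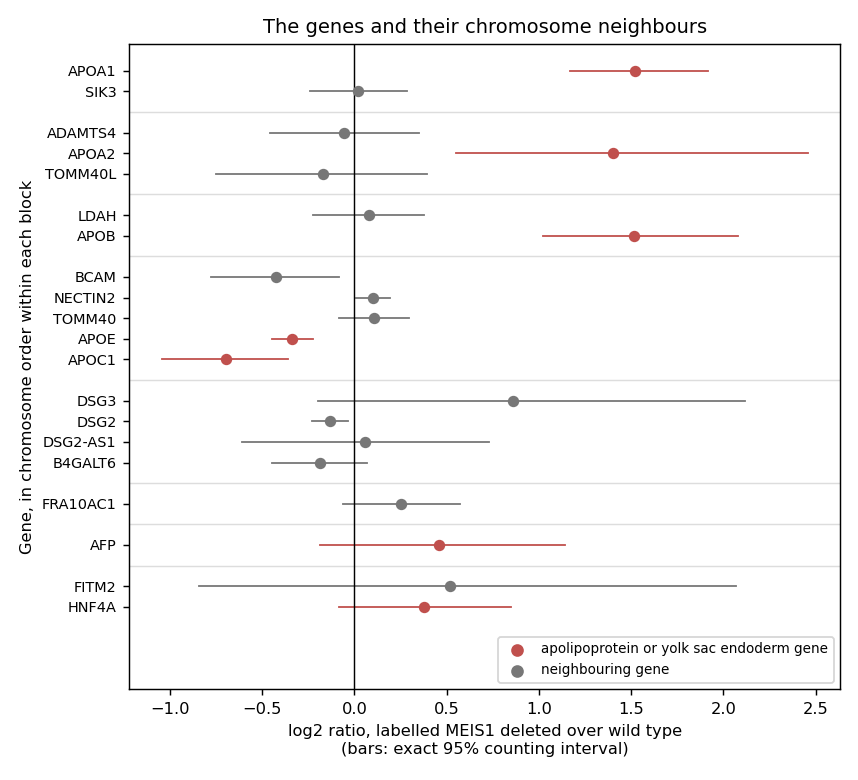
Log2 ratio with exact 95% counting interval for the genes described (red) and those of their 3 nearest RefSeq neighbours on each side that had at least 10 counts (grey), in chromosome order, with 1 neighbour of APOA2 left out of the drawing. Blocks are, from the top, the surroundings of APOA1, APOA2, APOB, APOE with APOC1, TTR, RBP4, AFP and HNF4A. The grey intervals drawn beside APOA1, APOA2 and APOB include 0, and NECTIN2 and TOMM40 lie above 0 beside the lower APOE and APOC1.

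Among 19 other apolipoprotein genes, 6 were listed in neither library, 5 were below the minimum, and of the 8 compared 2 were higher, 1 lower and 5 included 1, with a median log2 ratio of 0.17. CLU, which encodes the extracellular chaperone clusterin (apolipoprotein J), was 1.48-fold higher (1.21 to 1.81), at 169 and 253 counts. On the FPKM scale CLU, at 11.3 and 16.6, and APOO, a mitochondrial member of the family, at 9.85 and 10.9, stood above AFP, HNF4A and APOB in both libraries. APOM, which carries sphingosine 1-phosphate on high-density lipoprotein, had 3 and 13 counts, so its higher call rested on few reads. APOL6 was 1.47-fold lower (1.12 to 1.94).

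Of 18 genes of lipoprotein assembly and secretion, 17 reached the minimum count, with small differences for most. MTTP, the microsomal transfer protein without which APOB is not secreted, was low, with 5 and 12 counts, at 0.23 and 0.55 FPKM. The interval of its ratio included 1 (0.779 to 8.61). Its partner subunit P4HB, a protein disulfide isomerase of every secretory cell, was 1.14-fold higher (1.09 to 1.20), at 3600 and 4157 counts. SAR1B, a GTPase of the vesicles that carry chylomicrons, was 1.34-fold higher (1.10 to 1.64), and SEC23A, a coat subunit of such vesicles, 1.24-fold (1.11 to 1.38). Over the 17 assembly and secretion genes compared, 5 were higher, 2 lower and 10 included 1, none by 2-fold, with a median of -0.011, a value near 0 whose sign changed to plus with DESeq2 size factors, and a mean of 0.13.

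Genes for lipoprotein uptake were more often lower than higher, with 9 of 18 lower, 3 higher, 6 that included 1 and a median of -0.21. Over all genes 14.7% were lower and 15.4% higher. LRP8 and VLDLR, receptors that bind APOE, were among the lower ones, at 761 and 548 counts and at 122 and 90. LRP2 (megalin), an endocytic receptor of yolk sac and kidney epithelium, was 1.77-fold higher (1.52 to 2.06), and the scavenger receptor gene STAB1 2.24-fold (1.62 to 3.18). CUBN, the partner of LRP2 and a receptor for APOA1, had 90 and 75 counts with an interval that included 1, and AMN, which brings CUBN to the cell surface, had 2 and 1.

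Among 11 genes of lipid transfer and lipolysis compared, 1 was higher, 2 were lower and 8 included 1, with a median of -0.10. LPL, the lipase that frees fatty acids from circulating particles, was 2.69-fold higher (1.71 to 4.61), at 24 and 67 counts. ABCA1, the pump that loads cholesterol onto APOA1, had 360 and 305 counts, 1.19-fold lower (1.02 to 1.39), and NPC2, which binds cholesterol in lysosomes, was 1.35-fold lower (1.22 to 1.5). Of 8 genes of retinol handling compared, partners of RBP4 and TTR among them, 0 were higher, 3 were lower and 5 included 1, with a median of -0.22, beside 15.4% higher and 14.7% lower over all genes. STRA6, the receptor for the RBP4 protein, had 296 and 258 counts and its interval included 1. LRAT, which stores retinol as esters, was 2.37-fold lower (1.77 to 3.26), and CRABP2, a cell carrier of retinoic acid, 1.79-fold (1.61 to 1.99).

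Most other plasma protein genes of liver and yolk sac were near the floor. Of 36, 10 were listed in neither library, ALB and SERPINA1 among them, and 17 were below the minimum. Of the 9 compared 3 were higher, 1 lower and 5 included 1, and the median of 0.91 rested on low counts: it was 0.49 from FPKM and 0.66 with at least 50 counts. VTN, which encodes the adhesion and plasma protein vitronectin, was 2.61-fold higher (1.60 to 4.67), at 21 and 57 counts. The ceruloplasmin gene CP, at 19 and 37, was also called higher. The fibrinogen chain genes FGA, FGB and FGG had 4 and 11, 71 and 93, and 3 and 10 counts, each with an interval that included 1. IGF2, a growth factor gene of yolk sac and of mesoderm alike, was 1.92-fold higher (1.80 to 2.05), at 1405 and 2730 counts. The complement gene C3, also made by liver, went the other way, with 62 and 24 counts, 2.55-fold lower (1.61 to 4.37).

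**Figure D5:**
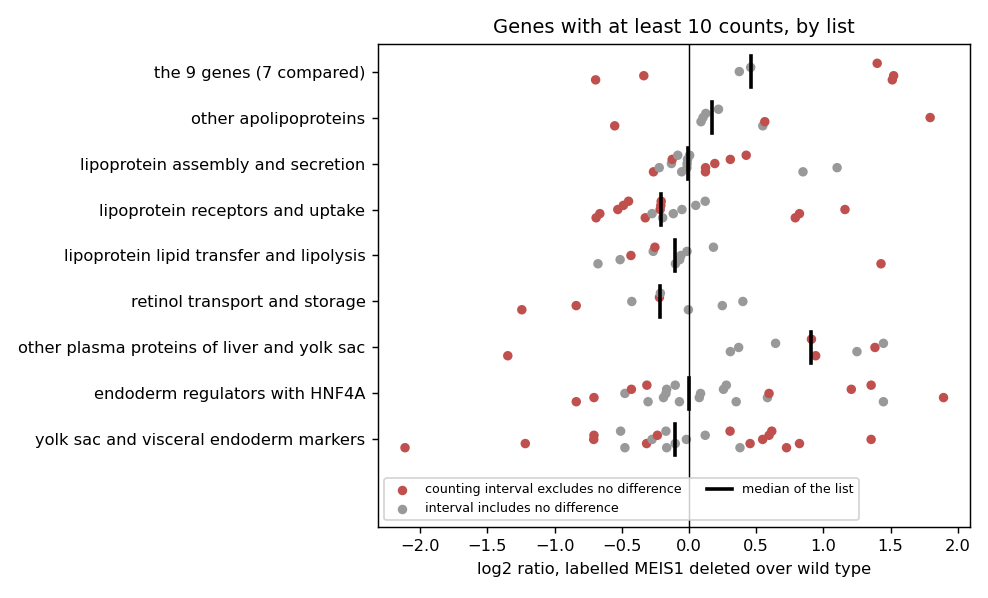
Log2 ratio of the genes with at least 10 counts in each list, with the list median as a bar. Red points have a counting interval that excludes no difference. The 9 genes described (7 compared) spread from -0.69 to 1.52, and the medians of the lists of lipoprotein assembly, uptake and lipid transfer lie between -0.21 and -0.011.

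Calls on the transcription factors that act with HNF4A in endoderm went both ways, at shares near those over all genes. Of 22 compared 4 were higher, 4 lower and 14 included 1, beside 15.4% higher and 14.7% lower over all genes. The median was 0.0031, and its sign changed to minus when libraries were scaled by total counts. GATA4 had 647 and 609 counts, GATA6 486 and 436, FOXA2 72 and 52 and FOXA1 39 and 48, each with an interval that included 1. SOX17, needed for endoderm and also expressed in endothelium, was 1.63-fold lower (1.41 to 1.90). ZHX2, known as a repressor of AFP in mouse liver, was 1.79-fold lower (1.53 to 2.10). HHEX, a homeobox gene of endoderm and of blood and endothelial precursors, was 2.56-fold higher (1.79 to 3.84), at 40 and 105 counts. SOX7, of the same gene group as SOX17, was 1.51-fold higher (1.26 to 1.82). CEBPA had 3 and 14 counts and the nuclear receptor gene NR2F2, whose product can bind HNF4-type sites, 14 and 34, and both were called higher. RXRA, which encodes a partner of many nuclear receptors, was 1.35-fold lower (1.13 to 1.61).

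Of 26 yolk sac and visceral endoderm markers, 23 were compared, 8 were higher, 6 lower and 9 included 1, with a median of -0.10. Their summed levels were 7833 and 8489 CPM, counts scaled to library size. In FPKM the sums did not rise, at 1659 and 1647. CER1 was 4.32-fold lower (2.98 to 6.78) and OTX2 2.33-fold lower (1.83 to 3.01), both genes of anterior visceral endoderm. HHEX, also of this list, went the other way, 2.56-fold higher (1.79 to 3.84). CER1 and HHEX are in the definitive endoderm list as well, and CER1 in that of the primitive streak. The basement membrane genes COL4A1, COL4A2, LAMA1 and LAMB1, abundant in parietal endoderm but made by mesoderm and endothelium as well, were all higher, by 1.24 to 1.65 times. The 2 genes of the list with the highest FPKM did not rise. SPARC had 5327 and 5311 counts, a ratio of 0.987 (0.950 to 1.03), and PODXL was 1.24-fold lower (1.21 to 1.28). AMN and SPINK1 had at most 2 counts. Definitive endoderm and gut markers had 3 of 18 higher, 7 lower and a median of -0.24, at 4688 and 4438 CPM, with EOMES 4.14-fold lower (3.57 to 4.85). Hepatocyte markers had 1 of 9 higher, 0 lower and a median of 0.16, which was 0.042 with a minimum of 1 count. ALB, SERPINA1, ASGR2 and CYP7A1 were among those listed in neither library. The summed levels of the hepatocyte markers, 3436 and 3477 CPM, were almost all from KRT8 and KRT18.

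Markers of other cell types moved between the libraries as well, and their part in the differences of the 9 genes was not tested. Monocyte and macrophage markers, cells known for APOE and APOC1, had 2 of 6 higher and 0 lower, at 50.2 and 94.6 CPM in sum. That rise came mainly from LAPTM5, at 55 and 254 counts, while C1QA, C1QB, C1QC, MARCO, FCGR1A and FCGR3A were listed in neither library and CD14 had 0 and 3 counts. Haemato-endothelial markers had 14 of 16 higher and 1, ETV2, lower (median 1.04, from 1289 to 1935 CPM). Lateral plate and extraembryonic mesoderm markers had 11 of 17 higher and 3 lower (median 0.76, from 2347 to 3574), with DCN and WT1 listed in neither library. Amnion and trophoblast markers had 5 of 12 higher and 4 lower (median 0.27, from 870.3 to 994.9). Primitive streak markers had 8 of 9 lower and 0 higher (median -1.70, from 484.3 to 144.4), and pluripotency markers 10 of 12 lower and 0 higher (median -0.61, from 3140 to 2451).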

How the data were processed

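Per the labels' protocols, a TruSeq kit turned 2 µg of total RNA into each sequencing library. The authors deposited, for each library, expected counts per gene, estimates that are not always whole numbers and are not scaled, and FPKM values scaled for length and depth, per the file headers. BWA, Bowtie, RSEM and hg19 appear, with no versions, in the submitters' processing notes, and the series design text named other tools, so the steps behind the tables are not given in full in the sources used here.

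Expected counts were rounded, a gene absent from 1 table was taken as 0, and libraries were scaled by TMM effective library sizes over all genes (edgeR 4.0.16, R 4.3.3), at a ratio of 1.01 between them. Log2 ratios used a pseudocount of 1, a fold is the same ratio on a linear scale, and intervals are exact Clopper-Pearson 95% intervals of the ratio conditional on the summed count. The pseudocount enters the fold and not the interval. At low counts a fold therefore lies nearer to 1 than the plain ratio that its interval describes. For sums of genes the fold has no pseudocount. PCR copies are not independent molecules, so intervals cover counting error only. The share of listed genes whose deposited count was whole, within 0.005, was 69.4% and 69.9%. Of 18518 gene numbers, 18413 matched the RefSeq gene table (GRCh38.p14), used for names, chromosomes and neighbours. Motifs were searched in windows of 250 bases before and 50 after each start, on both strands except TATAAA.

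The 9 genes and the 16 related lists were chosen with earlier results of these data known, and several genes are in more than 1 list. From each list the rule took up to 4 genes with the largest ratios among those with at least 50 counts and up to 2 with the highest FPKM. The text gives a part of these, and other list genes named for their role were chosen after their values were seen. Alternatives were DESeq2 1.42.0 size factors, total counts, upper quartile scaling, FPKM, a pseudocount of 0.5, unrounded counts, minimum counts of 1 and 50, folds of 1.5 and 4, and 99% intervals. The computation was tested on simulated data. Some genes of the lists and neighbourhoods are counted but not reported here by name.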

Additional observations from a re-analysis of the deposited data

How the results depend on the processing

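The log2 ratios of the 7 genes kept their sign in 43 of 43 values under other scalings, FPKM, a pseudocount of 0.5, unrounded counts and, for APOC1, the pseudogene's counts added, the last chosen after seeing the data. Of these, 42 stayed inside the main counting interval. The other was APOB, at 0.74 from FPKM, since its FPKM of 0.57 and 1.63 are small beside the pseudocount of 1, and by FPKM 2 genes were 2-fold higher. The count of 3 higher and 2 lower genes was unchanged by scaling and by a 99% interval. A minimum of 50 counts left out APOA2 and AFP, so 2 were higher, and took the list median of the endoderm regulators to -0.13, of the amnion and trophoblast markers to -0.032, of the other plasma proteins from 0.91 to 0.66 and of the monocyte and macrophage markers from 0.45 to 1.20. By FPKM the medians of these plasma protein and monocyte lists were 0.49 and 0.26. With a fold of at least 1.5 asked for, 1 gene was lower, and at 4-fold 0 were higher and 0 lower. Across all genes, 417 and 424 at 2-fold became 182 and 183 from FPKM, 161 and 171 with at least 50 counts, 827 and 893 at 1.5-fold and 111 and 81 at 4-fold. Among the 182 related genes compared, 54 higher and 54 lower became 40 and 27 at 1.5-fold and 8 and 3 at 4-fold. FPKM gives no counting interval, so calls by interval alone were not made from it. No paired analysis was possible because each genotype had 1 library. At this depth TTR and RBP4 could not be compared.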
